A study of Mus musculus with 24 samples.

Results

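The transcripts of 6 families of amino acid transporters were examined in whole fat pads of male mice on the C57BL/6J background. The genes were taken by name, as the protein-coding genes whose symbol is Slc1a, Slc3a, Slc7a, Slc36a, Slc38a or Slc43a followed by a number. This rule was set with earlier results of these data known. The rule gave 42 of the 49585 gene identifiers in the count tables, of which 21734 are protein-coding. These were 7 Slc1, 2 Slc3, 15 Slc7, 4 Slc36, 11 Slc38 and 3 Slc43 genes, and each had reads in at least 1 of the 24 libraries. High-fat subcutaneous adipose tissue (SAT, n = 4) came from wild-type mice that had 60% of their calories as fat for 20 weeks, and low-fat SAT (n = 4) from wild-type mice that had 10% for the same time. Azin2-/- SAT (n = 3), wild-type SAT (n = 5), Azin2-/- epigonadal adipose tissue (GAT, n = 4) and wild-type GAT (n = 4) came from littermates that had all been fed the 60% fat diet for 8 weeks. AZIN2 is antizyme inhibitor 2, a protein that frees ornithine decarboxylase, the first enzyme of polyamine synthesis, from its antizymes. The sources used here do not state which part of Azin2 is missing, nor the age of the mice. Each library is RNA of a whole fat pad, so fewer cells of a type and less RNA per cell cannot be told apart in any result below. Values of single libraries are listed in replicate order, which is 3, 4, 5 and 6 in high-fat SAT, 1, 3, 5 and 6 in low-fat SAT and from 1 upward elsewhere.

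Amino acids cross membranes through carriers of many families. The Slc3 proteins are not carriers themselves: Slc3a2 encodes CD98, the heavy chain that is joined by a disulfide bond to light chains of the Slc7 family and takes them to the cell surface, and Slc3a1 encodes rBAT, the heavy chain of the cystine and dibasic carriers of kidney and gut. Other Slc7 proteins, the CAT carriers, take up arginine, lysine and ornithine without a heavy chain. Slc1 holds the glutamate carriers of the brain and the neutral exchangers ASCT1 and ASCT2, Slc38 the sodium-coupled carriers of glutamine and alanine, Slc36 the proton-coupled carriers PAT1 and PAT2 of glycine, proline and alanine and the proline and tryptophan carrier PAT4, and Slc43 the facilitated carriers LAT3 and LAT4 of branched-chain amino acids. In fat, Slc7a10 (Asc-1, a carrier of alanine, serine and glycine) is known as a surface marker of white adipocytes and Slc36a2 (PAT2) as one of brown and beige adipocytes. In human colon cancer cells SLC3A2 has been described as part of a polyamine export system, and its values are given beside those of Slc36a2 in each comparison.

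The libraries held 31.96 to 46.62 megareads counted to genes. Azin2 was read at 8.32 to 11.8 normalised CPM (counts scaled to a common library size with TMM factors) in Azin2-/- SAT against 16.2 to 25.2 in wild-type SAT, and at 12.5 to 18.97 in Azin2-/- GAT against 22.4 to 25.4 in wild-type GAT, so no Azin2-/- library reached a wild-type library of its depot. The summed level of 6 adipocyte markers was 6979.7 CPM in low-fat SAT replicate 1 and 16843 to 30225 CPM elsewhere. 2 libraries held transcripts of the epididymis: the summed level of 6 epididymis markers was 18903 CPM in low-fat SAT replicate 1 and 5493 CPM in wild-type GAT replicate 3, and at most 0.215 CPM in the Azin2-/- and high-fat libraries. Low-fat replicate 1 also had the lowest sum of 3 subcutaneous depot markers of its group, 3.59 CPM against 65.2 to 82.3 CPM in replicates 3, 5 and 6, below the 5.004 to 8.14 CPM of wild-type GAT, which goes against its label. The sum of 8 skeletal muscle markers reached 52393 CPM in Azin2-/- SAT replicate 2 and 45740.2 CPM in wild-type SAT replicate 3. It was 5057 CPM in high-fat SAT replicate 6, 17081 CPM in low-fat SAT replicate 5 and 867 CPM in low-fat SAT replicate 6, and 11.3 to 213 CPM in the other libraries. Counts of called genes in the diet and GAT comparisons are given with and without the library labelled low-fat replicate 1 and wild-type GAT replicate 3.

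Read per length, one exchanger dominated the 42 genes. Slc1a5, which encodes the glutamine exchanger ASCT2, had the highest mean FPKM (normalised CPM per kilobase of exon) in all 6 groups: 385 ± 18.2 in high-fat SAT and 477 ± 219.6 in low-fat SAT, 613 ± 80.2 in Azin2-/- SAT and 559.5 ± 56.9 in wild-type SAT, and 459 ± 51.96 in Azin2-/- GAT and 537 ± 56.4 in wild-type GAT (SD). It alone made up 44.7% to 47.4% of the members' summed CPM in high-fat SAT and 12.3% to 55.9% in low-fat SAT, the lowest share being that of replicate 1. The white adipocyte carrier Slc7a10 was next, at 157 FPKM in high-fat SAT, 145 in low-fat SAT, 155 in Azin2-/- SAT, 162 in wild-type SAT, 131 in Azin2-/- GAT and 168 in wild-type GAT. In low-fat SAT a gene otherwise barely read, Slc38a5, came between them through replicate 1 alone.

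By mean FPKM, Slc36a2 was the third most highly read member in 5 of the 6 groups and the fourth in low-fat SAT, where Slc38a5 of replicate 1 came above it. In wild-type GAT its mean lay within the SD of that of Slc3a2, at 41.3 against 41.04. The gene lies at chr11:55158470-55185077 (GRCm38). Its mean FPKM was 114 ± 12.96 in high-fat SAT and 71.2 ± 26.7 in low-fat SAT, 136 ± 3.48 in Azin2-/- SAT and 71.8 ± 10.6 in wild-type SAT, and 61.1 ± 18.6 in Azin2-/- GAT and 41.3 ± 6.17 in wild-type GAT (SD). In order of level, Azin2-/- SAT, high-fat SAT and wild-type SAT did not overlap with each other, while wild-type SAT overlapped with low-fat SAT, low-fat SAT with Azin2-/- GAT, and Azin2-/- GAT with wild-type GAT. High-fat and low-fat SAT had 20 weeks of diet and the other groups 8 weeks, so this order mixes feeding times. Slc3a2 (chr19:8706882-8723369) had a narrower range of group means: its mean FPKM was 47.2 ± 2.35 in high-fat SAT, 56.5 ± 40.4 in low-fat SAT, 49.3 ± 13.2 in Azin2-/- SAT, 47.2 ± 7.12 in wild-type SAT, 49.6 ± 3.19 in Azin2-/- GAT and 41.04 ± 3.45 in wild-type GAT. The low-fat SD of Slc3a2 comes from replicate 1, whose level of 412 normalised CPM was above the 159.6 to 178 of high-fat SAT, while the other 3 low-fat libraries lay at 146, 109 and 129.6.

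Among the light chains that pair with CD98, wild-type SAT held Slc7a10 at 162 mean FPKM, Slc7a8 (LAT2) at 16.5, Slc7a6 (y+LAT2) at 9.21, Slc7a7 (y+LAT1) at 2.11, Slc7a5 (LAT1) at 1.66 and Slc7a11 (xCT, the cystine and glutamate exchanger) at 0.0233, against 47.2 for the heavy chain. The other heavy chain, Slc3a1, had 0.186 FPKM. Of the cationic carriers, Slc7a1 (CAT1) stood at 1.45, Slc7a2 (CAT2) at 1.27 and Slc7a3 (CAT3) at 0.232. Of the glutamate carriers only Slc1a3 (GLAST) at 22.6 and Slc1a1 (EAAC1) at 1.56 passed 1 FPKM in wild-type SAT, and the neutral exchanger Slc1a4 (ASCT1) had 2.97. Of the other Slc36 carriers, Slc36a1 had 6.402 and Slc36a4 4.62 FPKM, well below Slc36a2. In the Slc38 family Slc38a10 led with 40.7 FPKM, followed by Slc38a2 (SNAT2, a glutamine and alanine carrier) at 10.6, Slc38a7 (the lysosomal glutamine exporter SNAT7) at 7.73, Slc38a6 at 3.23 and Slc38a9 (the lysosomal arginine sensor) at 1.14. Slc43a3, a nucleobase carrier despite its family, had 28.9, Slc43a2 (LAT4) 3.43 and Slc43a1 (LAT3) 5.25 FPKM in the same libraries.

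The remaining tested members were read at low levels: over the 6 groups the mean FPKM was 0.231 to 1.19 for Slc38a1, 0.615 to 2.77 for Slc38a3, 0.2705 to 6.95 for Slc38a4, 0.108 to 0.266 for Slc38a11, 0.08904 to 0.236 for Slc7a13, 0.00953 to 0.0656 for Slc1a2 and 0.00929 to 0.186 for Slc1a7. Slc7a4 had 0.206 to 7.85, the upper values being those of the 2 groups with an epididymis library. Low counts kept some members out of the tests. A total of 32 members had enough reads to be tested in each of the 6 comparisons, 3 (Slc1a2, Slc1a7 and Slc38a5) in some, and 7 (Slc1a6, Slc7a9, Slc7a12, Slc7a14, Slc7a15, Slc36a3 and Slc38a8) in none. The highest count in any library was 292 for Slc7a9 (the light chain of rBAT), 33 for Slc7a15, 15 for Slc38a8, 11 for Slc1a6, 8 for Slc7a14, 6 for Slc36a3 and 3 for Slc7a12, and each of the 7 had at least 1 library with no read, which allows up to 3 counts. The epididymis transcripts were accompanied by members that the rest of the series barely held: in low-fat SAT replicate 1, Slc38a5 (the glutamine carrier SNAT5) had 1561 normalised CPM against at most 0.105 in high-fat SAT, and Slc7a5 had 982 against at most 7.44.

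**Figure D1:**
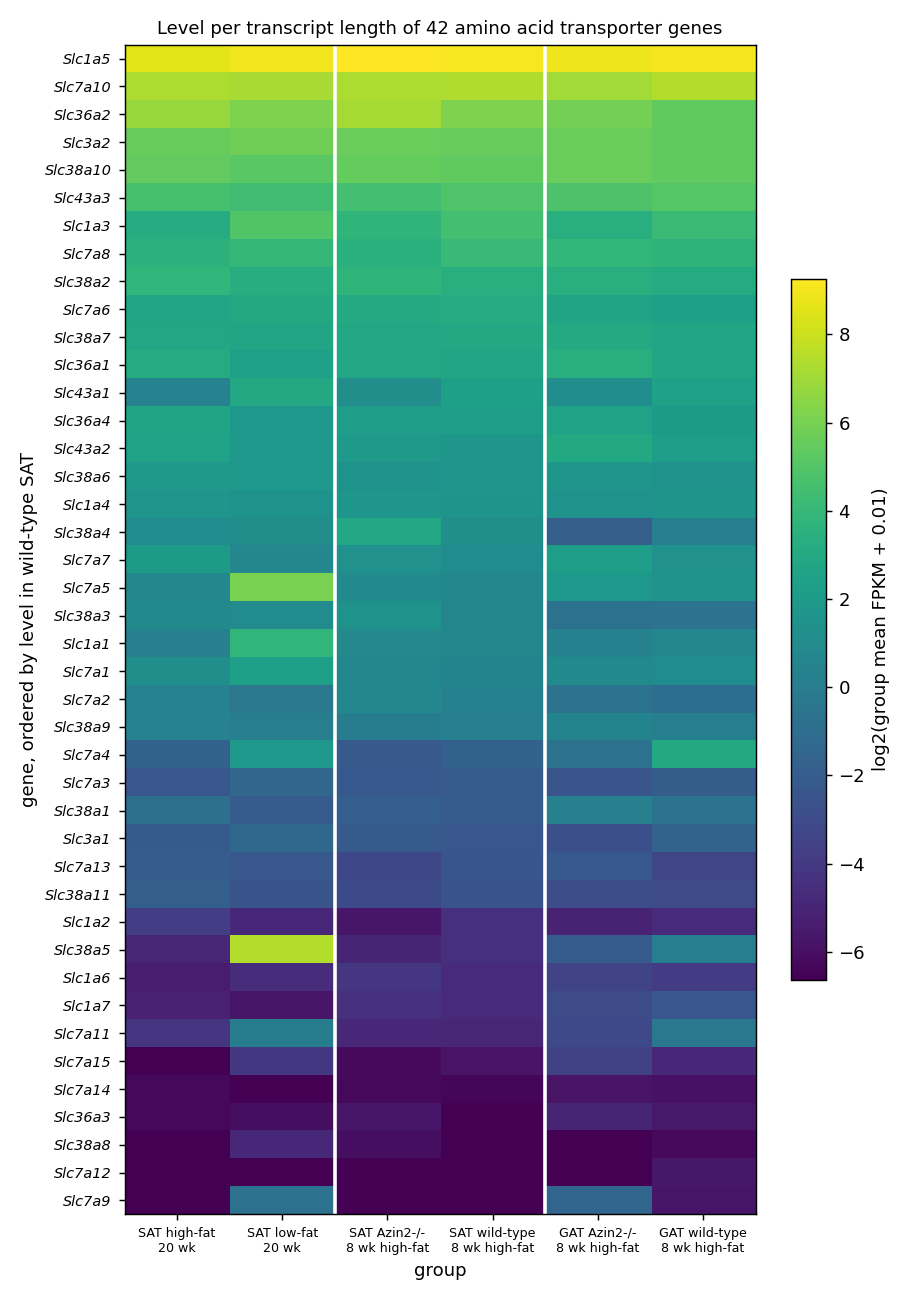
Mean FPKM of the 42 members in the 6 groups, as log2(mean FPKM + 0.01), with genes ordered by their level in wild-type SAT. Slc1a5, Slc7a10 and Slc36a2 head the list, and Slc38a5, Slc7a5, Slc7a11 and Slc7a4 stand out in low-fat SAT, where 1 library held epididymis transcripts. Slc7a4 and Slc7a11 are also high in wild-type GAT, which held the other such library.

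High-fat and low-fat SAT were compared to see how 20 weeks of dietary fat bore on the carriers. Slc7a7, the y+LAT1 light chain that exports arginine and lysine in exchange for neutral amino acids, rose in high-fat SAT, as did Slc38a2, Slc36a4 (PAT4, a carrier of proline and tryptophan) and Slc43a2 (LAT4). Slc43a1 (LAT3) fell. These 5 (4 higher and 1 lower) of 33 members tested had an adjusted p below 0.05 in edgeR's quasi-likelihood test with Benjamini-Hochberg adjustment over all genes, the test used throughout. That is 15.2% of the members tested, against 21.2% of all 17066 genes tested (10.8% higher and 10.4% lower), so the members' share was near or below that of genes at large. Their median log2 fold change was 0.08, against -0.09 over all genes tested.

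Slc7a7 had 13.05, 14.99, 13.2 and 12.8 normalised CPM in high-fat SAT, against 6.18, 4.83, 5.06 and 6.03 in low-fat SAT. All 4 high-fat libraries lay above all 4 low-fat ones, and low-fat replicate 1 sat with its group. The difference was 1.27 (adjusted p = 0.00132, SE 0.13) on the log2 scale. Slc36a4 had 42.7, 41.1, 38.9 and 42.1 normalised CPM in high-fat SAT, against 15.3, 26.1, 24.2 and 26.4 in low-fat SAT, again without overlap, for a log2 fold change of 0.83 (adjusted p = 0.0107, SE 0.16). For Slc38a2 the levels were 128, 125, 125 and 124 normalised CPM in high-fat SAT, against 68.3, 94.5, 91.8 and 80.4 in low-fat SAT. The high-fat libraries lay within a narrow band above every low-fat one, with a log2 fold change of 0.57 (adjusted p = 0.00766, SE 0.10). Slc43a2 had 54.8, 61.9, 59.9 and 49.1 normalised CPM in high-fat SAT, against 25.2, 46.97, 35.1 and 36.1 in low-fat SAT, and its log2 fold change of 0.64 (adjusted p = 0.0346, SE 0.17) was the least firm of the 5. It kept the call without low-fat replicate 1 or 3 and lost it without any other single library (adjusted p = 0.0602 to 0.104).

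Slc43a1 moved the other way and by more. It had 7.79, 7.66, 7.51 and 7.72 normalised CPM in high-fat SAT, against 10.2, 68.8, 55.5 and 44.3 in low-fat SAT, a log2 fold change of -2.55 (adjusted p = 0.0115, SE 0.50). The high-fat libraries were nearly alike, and low-fat replicate 1, the library with epididymis transcripts, stood close to them and far from the other 3 low-fat libraries. Without that library the log2 fold change was -2.87 (adjusted p = 8.7e-06, SE 0.13).

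Slc36a2 was read at 372, 424, 322 and 360.2 normalised CPM in high-fat SAT, against 104, 297, 252 and 274 in low-fat SAT. The groups did not overlap, but the log2 fold change of 0.66 (adjusted p = 0.145, SE 0.30) did not pass the test with all 8 libraries. Without low-fat replicate 1 it was 0.43 (adjusted p = 0.0103, SE 0.11) and passed. The summed level of 6 brown and beige adipocyte markers was 23.3 to 30.1 CPM in high-fat SAT. In low-fat SAT it was 14.7, 56.8, 74.6 and 35.4 CPM, so only replicate 1 lay below the high-fat libraries and the others lay above them. Without replicate 1 this sum was thus lower in high-fat SAT, where Slc36a2 was higher. The part of brown and beige adipocytes in the level of Slc36a2 was not tested. Slc3a2 was read at 167, 162, 178 and 159.6 normalised CPM in high-fat SAT, against 412, 146, 109 and 129.6 in low-fat SAT. Replicate 1 lay above all high-fat libraries and the other 3 low-fat libraries below them, so that the sign of its log2 fold change turned, at -0.29 (adjusted p = 0.643, SE 0.43) with that library and 0.37 (adjusted p = 0.0141, SE 0.10) without it.

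Without low-fat replicate 1, 15 of 33 members passed the test, 10 higher and 5 lower in high-fat SAT. This share of 45.5% stood beside 47% of all genes tested in the same libraries (23.5% higher and 23.5% lower), so again the members as a list did not stand apart. The 3 low-fat libraries left include replicate 5, rich in muscle transcripts, and without it as well 15 members passed, 14 of them the same. All 3 Slc36 carriers tested, Slc36a1, Slc36a2 and Slc36a4, rose. Among the CD98 light chains Slc7a7 and Slc7a5 rose and Slc7a6 fell, and CD98 itself rose, all in the 7 libraries. Among the sodium-coupled carriers Slc38a1, Slc38a2 and Slc38a9 rose, and among the glutamate carriers and neutral exchangers Slc1a3 and Slc1a5 fell. Slc7a3 also fell, with 0.947, 0.706, 0.683 and 0.475 normalised CPM in high-fat SAT against 1.52, 0.805, 1.86 and 1.39 in low-fat SAT and groups that overlapped (adjusted p = 0.0441), and Slc43a2 rose with an adjusted p of 0.00844. Slc7a3 lost its call when high-fat replicate 4, 5 or 6 or low-fat replicate 5 or 6 was also left out, and Slc38a9 (log2 fold change 0.32, adjusted p = 0.0171, SE 0.09) when low-fat replicate 3 was.

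The largest of these differences after Slc43a1 was that of Slc1a3, the glutamate and aspartate carrier GLAST. It had 86.3, 67.1, 76.6 and 79.8 normalised CPM in high-fat SAT, against 40.2, 366, 313 and 327 in low-fat SAT, where replicate 1 lay below the high-fat libraries and the other 3 far above them. Its log2 fold change was -2.12 (adjusted p = 8.5e-06, SE 0.10) without replicate 1 and -1.76 (adjusted p = 0.0637, SE 0.57) with it. Slc1a5, the most highly read member, had 1585, 1520.1, 1612 and 1704 normalised CPM in high-fat SAT, against 634, 2563, 2230.0 and 2532 in low-fat SAT. Its log2 fold change without replicate 1 was -0.61 (adjusted p = 4.1e-04, SE 0.08). Slc7a6 followed the same order of libraries, with 30.2, 27.1, 28.3 and 31.4 normalised CPM in high-fat SAT, against 18.4, 50.8, 40.97 and 39.997 in low-fat SAT. For these 3 carriers replicate 1 was the only low-fat library below the high-fat ones.

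Of the carriers that rose without replicate 1, Slc38a1 (SNAT1, a glutamine carrier) had 10.5, 10.7, 10.7 and 8.03 normalised CPM in high-fat SAT, against 7.67, 1.61, 2.71 and 3.95 in low-fat SAT, and its log2 fold change was 1.85 (adjusted p = 0.001404, SE 0.29). Slc36a1, the lysosomal carrier PAT1, had 49.998, 52.2, 50.1 and 46.7 normalised CPM in high-fat SAT, against 16.1, 38.5, 31.4 and 35.9 in low-fat SAT. Both genes separated the diets in all 8 libraries, although neither passed the test with replicate 1 in the fit (adjusted p = 0.0802 for Slc38a1 and 0.0725 for Slc36a1). Slc7a5 (LAT1, the carrier of leucine and other large neutral amino acids) had 6.44, 6.06, 7.44 and 5.43 normalised CPM in high-fat SAT, against 982, 4.25, 3.17 and 4.02 in low-fat SAT. Apart from replicate 1, its levels were low in both groups, with a log2 fold change of 0.73 (adjusted p = 0.00543, SE 0.16). With all 8 libraries, 9 members separated the diets without overlap, 8 of them higher and 1 lower in high-fat SAT, where 33.6% of all genes tested did so. The summed level of 6 macrophage markers was 829.9 to 1056 CPM in high-fat SAT and 180.5 to 269 CPM in low-fat SAT, and its part in the levels of Slc7a7, Slc36a4, Slc43a2 and the other carriers that were higher was not tested.

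**Figure D2:**
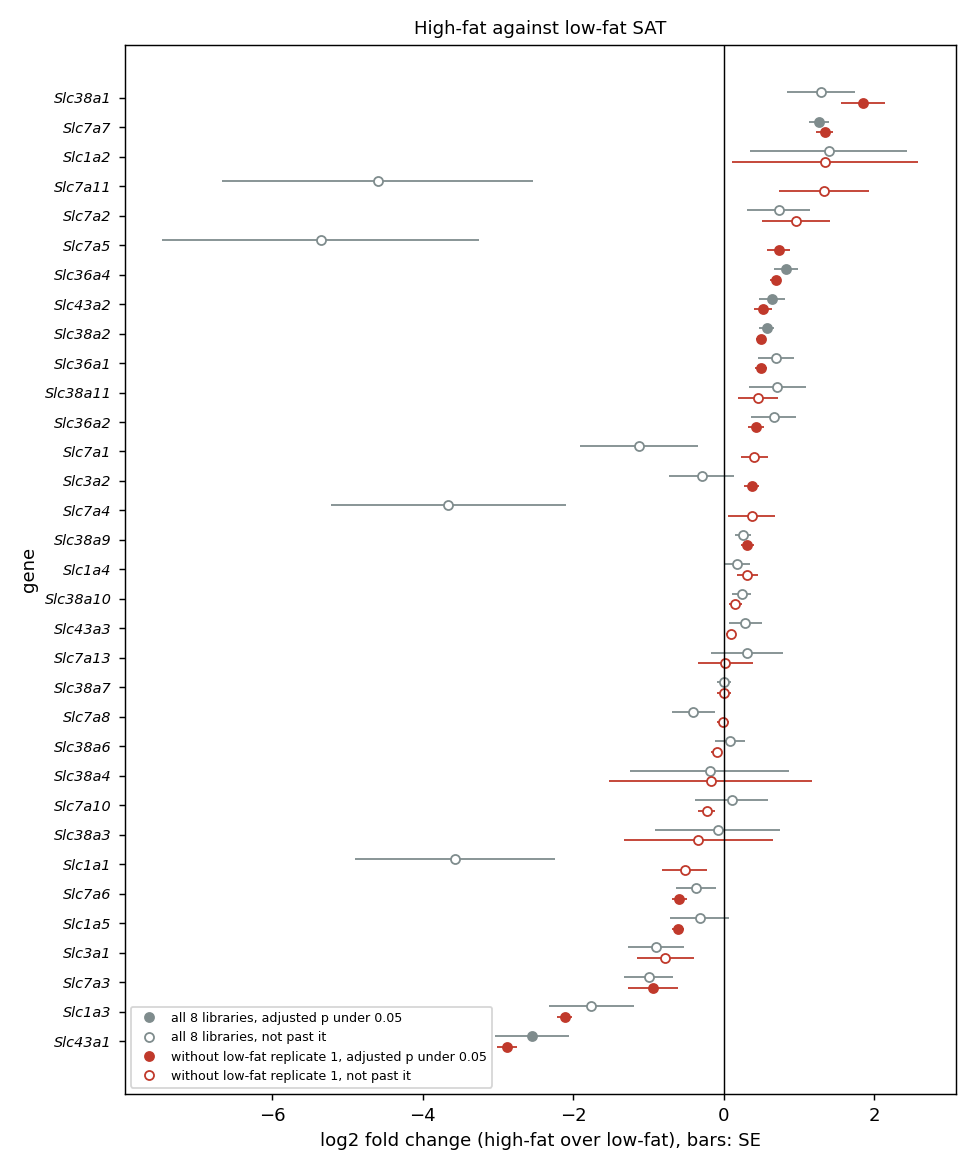
Log2 fold change, high-fat over low-fat SAT, for the 33 members tested, with all 8 libraries and without low-fat replicate 1 (points, with bars of 1 SE). Slc7a7, Slc36a4 and Slc38a2 lie right of 0 and Slc43a1 left of it in both, while Slc3a2 and Slc7a5 cross 0 when that library is left out.

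The sequences upstream of 5 of these genes are given because 3 of them, Slc7a7, Slc36a4 and Slc43a2, rose both here and in Azin2-/- GAT below, Slc43a1 fell here, and Slc7a11 is a textbook target of the amino acid response. Each is the 250 bases before a transcript start in RefSeq (GRCm38.p6), 5′ to 3′ on the strand of the gene, at chr14:54417703-54417952 (minus strand) for Slc7a7, chr9:15709488-15709737 (plus strand) for Slc36a4, chr11:75531444-75531693 (plus strand) for Slc43a2, chr2:84840073-84840322 (plus strand) for Slc43a1 and chr3:50443614-50443863 (minus strand) for Slc7a11. Capitals mark matches, on either strand, to the C/EBP-ATF response element TGATGNAAN or the antioxidant response element TGACNNNGC, where N is any base.
Slc7a7: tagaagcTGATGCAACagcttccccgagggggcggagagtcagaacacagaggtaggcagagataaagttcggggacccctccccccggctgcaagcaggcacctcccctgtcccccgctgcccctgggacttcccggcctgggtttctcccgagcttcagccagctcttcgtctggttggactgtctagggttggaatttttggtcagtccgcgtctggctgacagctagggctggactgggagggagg
Slc36a4: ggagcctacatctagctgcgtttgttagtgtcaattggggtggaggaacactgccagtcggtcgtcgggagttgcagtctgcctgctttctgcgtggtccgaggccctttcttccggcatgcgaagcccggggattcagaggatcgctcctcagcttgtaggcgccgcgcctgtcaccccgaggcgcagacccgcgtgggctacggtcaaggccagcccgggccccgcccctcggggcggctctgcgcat
Slc43a2: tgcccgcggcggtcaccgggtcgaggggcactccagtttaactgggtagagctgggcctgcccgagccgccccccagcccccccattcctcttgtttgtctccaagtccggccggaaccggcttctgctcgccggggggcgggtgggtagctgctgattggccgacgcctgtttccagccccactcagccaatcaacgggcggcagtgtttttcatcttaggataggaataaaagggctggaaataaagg
Slc43a1: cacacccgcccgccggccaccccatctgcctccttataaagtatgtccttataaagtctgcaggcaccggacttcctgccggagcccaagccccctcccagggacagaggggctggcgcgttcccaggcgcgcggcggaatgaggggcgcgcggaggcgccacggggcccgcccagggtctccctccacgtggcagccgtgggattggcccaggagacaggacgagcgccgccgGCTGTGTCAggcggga
Slc7a11: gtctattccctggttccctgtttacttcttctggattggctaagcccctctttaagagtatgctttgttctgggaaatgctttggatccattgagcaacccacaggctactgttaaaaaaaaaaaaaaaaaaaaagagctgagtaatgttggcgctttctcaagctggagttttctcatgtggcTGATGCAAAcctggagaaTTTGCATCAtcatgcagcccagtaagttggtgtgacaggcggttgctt

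The Slc7a11 window held the C/EBP-ATF element at 2 places, once on each strand, the Slc7a7 window held it once, and the Slc43a1 window held the antioxidant element once on the opposite strand. The windows of Slc36a4 and Slc43a2 held neither. The Slc7a7 window was picked from 5 because it held a match, and the Slc43a2 window from 2 as the nearest to the gene start. The presence of a match in the Slc7a7 window was thus set by the choice. Over windows that also took in the first 50 bases of the transcript, 4 of 42 windows of the 31 members in the table held the C/EBP-ATF element, where 3.95% of all 32851 windows did. These windows belonged to 3 members, since overlapping Slc7a7 windows held the same match. The antioxidant element was in 6 of the 42, where 12.4% of all windows held it. They belonged to 5 members, since overlapping Slc7a6 windows held the same match. A match of letters is a description and no evidence that a factor binds there. Slc7a11 itself was read at 0.631, 0.516, 0.512 and 0.811 normalised CPM in high-fat SAT, against 56.8, 0.0555, 0.137 and 0.521 in low-fat SAT, and the groups overlapped with or without replicate 1.

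Genes that handle amino acids next to these carriers changed in both directions. The counts below stand beside 21.2% of all genes tested. Of 24 targets and regulators of the amino acid response, 3 rose and 3 fell in high-fat SAT, among them Atf3, a stress-induced transcription factor (log2 fold change 3.17, adjusted p = 6.4e-05), Stc2, a secreted glycoprotein (log2 fold change -1.35, adjusted p = 0.004999), and Vldlr, a lipoprotein receptor (log2 fold change 1.00, adjusted p = 0.00835). Of 18 tested carriers of other families, 3 rose and 3 fell: the taurine carrier Slc6a6 (log2 fold change 2.52, adjusted p = 8.7e-04) and the lysosomal histidine and peptide carrier Slc15a3 (log2 fold change 2.51, adjusted p = 6.4e-05) rose, and the mitochondrial glycine carrier Slc25a38 (log2 fold change -0.43, adjusted p = 0.0272) fell. Of 32 genes of amino acid sensing to mTORC1, 3 rose and 2 fell. Of 15 enzymes of glutamine and glutamate, 1 rose and 3 fell, with proline dehydrogenase Prodh (log2 fold change -2.41, adjusted p = 0.00111) the firmest fall. Of 14 genes of glutathione synthesis and NRF2, 1 rose and 2 fell, and of 21 genes of polyamines and arginine 2 rose and 2 fell. The last included Azin2 itself, which fell (log2 fold change -0.58, adjusted p = 0.0127), and the polyamine exporter of lysosomes Atp13a2, which rose (log2 fold change 0.55, adjusted p = 0.00372). The total called in each of the 6 lists was more than 1.5 times larger without low-fat replicate 1, where 47% of all genes tested passed. Then 7 amino acid response genes rose and 8 fell, 5 of the other carriers rose and 6 fell, and 8 mTORC1 genes rose and 3 fell. In the same 7 libraries 2 glutamine and glutamate enzymes rose and 6 fell, 4 glutathione and NRF2 genes rose and 4 fell, and 5 polyamine and arginine genes rose and 6 fell. The genes named here kept their direction and passed in these libraries too.

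Azin2-/- and wild-type SAT were compared to see how loss of AZIN2 bore on the carriers in the subcutaneous depot. No member of 32 tested passed edgeR's test, where 1 of 16948 genes did (0.0059%). At an unadjusted p under 0.05 there were 4 members, a count given without the share of all genes at that threshold. Of all genes, DESeq2's Wald test called 2.09% and limma-voom 1.76%. Each called 1 member, Slc36a2 in both. It had 439, 455 and 434 normalised CPM in Azin2-/- SAT, against 224, 223, 222, 205 and 294 in wild-type SAT. The 3 Azin2-/- libraries were nearly alike and lay above all 5 wild-type libraries, the highest of which was replicate 5. The log2 fold change was 0.91 (adjusted p = 0.167, SE 0.12), or 1.88-fold, with an adjusted p of 1.6e-08 in DESeq2 and 0.0111 in limma-voom. Leaving out any single library kept its log2 fold change between 0.87 and 1.01 with edgeR's adjusted p between 0.0667 and 0.580, and leaving out both libraries rich in muscle transcripts gave 0.88. The summed brown and beige adipocyte markers were 32.6 to 872 CPM in Azin2-/- SAT and 22.4 to 96.9 CPM in wild-type SAT, with overlap. In Azin2-/- SAT the sum was 32.6, 872 and 68.2 CPM, replicate 2 standing apart with 457 CPM of Ucp1, the uncoupling protein of brown and beige adipocytes. In wild-type SAT it was 26.5, 22.4, 96.9, 32.7 and 65.6 CPM. The highest of these was replicate 3, rich in muscle transcripts, which had 0.0501 CPM of Ucp1. The part of brown and beige adipocytes in the level of Slc36a2 was not tested.

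Slc3a2 showed no such order, with 203, 120.4 and 199 normalised CPM in Azin2-/- SAT, against 193, 186, 137, 173 and 144 in wild-type SAT and a log2 fold change of 0.05 (adjusted p = 0.937, SE 0.19). Its sign turned when Azin2-/- replicate 1 (-0.076), Azin2-/- replicate 3 (-0.049) or wild-type replicate 3 (-0.008) was left out. The other 3 members with an unadjusted p under 0.05 are named after their values were seen. Slc38a2 had 109, 128 and 118 normalised CPM in Azin2-/- SAT, against 90.03, 97.3, 102, 103 and 76.7 in wild-type SAT, all Azin2-/- libraries being higher (log2 fold change 0.32, adjusted p = 0.398, SE 0.11). Slc43a3 had 106, 96.2 and 104 in Azin2-/- SAT, against 118, 111, 117, 157 and 141 in wild-type SAT, all Azin2-/- libraries being lower (log2 fold change -0.35, adjusted p = 0.427, SE 0.13). Slc7a8 overlapped between the groups (log2 fold change -0.59, adjusted p = 0.442, SE 0.23). With Slc36a2, 3 members thus separated the genotypes, where 7.24% of all genes tested did.

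Of the members that moved with diet, Slc43a1 and Slc1a3 (called only without low-fat replicate 1) were spread widely within wild-type SAT. Slc43a1 had 8.47, 21.8 and 8.61 normalised CPM in Azin2-/- SAT, against 12.2, 15.1, 51.3, 22.6 and 49.003 in wild-type SAT, and Slc1a3 had 90.6, 127 and 126 in Azin2-/- SAT, against 133, 113, 207, 152 and 362 in wild-type SAT. The high libraries were wild-type replicates 3 and 5, and the groups overlapped for both genes (log2 fold change -1.23, adjusted p = 0.543 for Slc43a1, and -0.77, adjusted p = 0.535 for Slc1a3). Slc7a7 had 12.01, 4.57 and 9.503 in Azin2-/- SAT, against 8.95, 6.75, 6.89, 7.43 and 5.03 in wild-type SAT, with overlap. Of 124 genes in the 6 lists of amino acid and polyamine genes, none passed edgeR's test, with 19 at an unadjusted p under 0.05, 6 called by DESeq2 and 5 by limma-voom. DESeq2 called 2.09% and limma-voom 1.76% of all genes, and the share at an unadjusted p under 0.05 is not given.

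**Figure D3:**
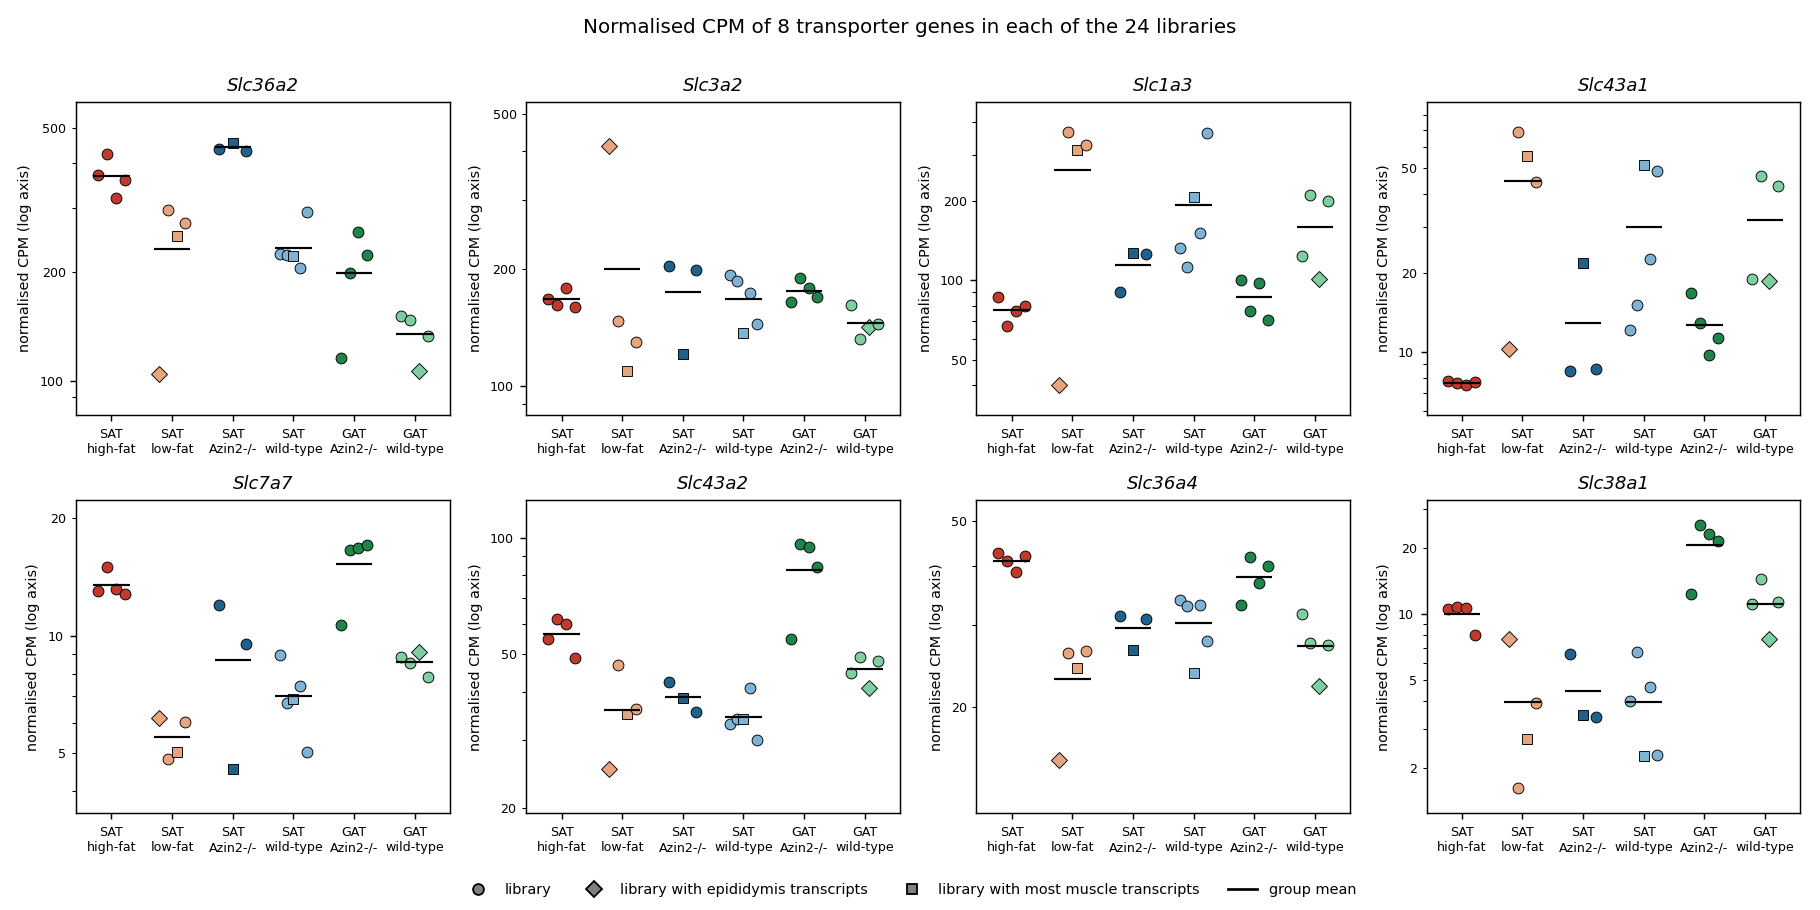
Normalised CPM (log axis) of 8 members in each of the 24 libraries, by group, with a line at the group mean, diamonds for the 2 libraries with epididymis transcripts and squares for libraries with the most muscle transcripts. Slc36a2 is high and even in Azin2-/- SAT, Slc7a7, Slc43a2 and Slc36a4 are higher in high-fat than in low-fat SAT and in Azin2-/- than in wild-type GAT, and Slc1a3 and Slc43a1 vary within wild-type groups.

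In GAT, loss of AZIN2 went with higher levels of 3 carriers, Slc7a7, Slc43a2 and Slc36a4. They were the 3 of 35 members tested (8.57%) that passed, all higher in Azin2-/- GAT, where 6.77% of all 16778 genes tested passed (5.45% higher and 1.32% lower). An unadjusted p under 0.05 was reached by 18 members, these 3 included. The share of all genes at that threshold is not given, so this count does not set the members apart. Slc7a7 had 10.7, 16.6, 16.8 and 17.1 normalised CPM in Azin2-/- GAT, against 8.83, 8.495, 9.07 and 7.82 in wild-type GAT, a log2 fold change of 0.82 (adjusted p = 0.0408, SE 0.15). Slc43a2 had 54.7, 96.2, 94.99 and 84.3 normalised CPM in Azin2-/- GAT, against 44.9, 49.1, 40.98 and 48.1 in wild-type GAT, a log2 fold change of 0.84 (adjusted p = 0.0408, SE 0.16). Slc36a4 had 33.04, 41.9, 36.9 and 40.02 normalised CPM in Azin2-/- GAT, against 31.6, 27.4, 22.2 and 27.1 in wild-type GAT, a log2 fold change of 0.47 (adjusted p = 0.0452, SE 0.11). In all 3, Azin2-/- replicate 1 lay nearest to wild-type, and the groups did not overlap.

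The calls were close to the threshold. Each was lost (adjusted p = 0.0871 to 0.148) when Azin2-/- replicate 2, 3 or 4 or wild-type replicate 2 or 4 was left out, fits in which at most 1 gene in all passed. Leaving out Azin2-/- replicate 1 gave 11 called members, where 15.7% of all genes passed. Leaving out wild-type replicate 1 gave 7, where 9.86% of all genes passed. The sum of macrophage markers moved with these carriers: it was 863, 1815, 1938 and 1540 CPM in Azin2-/- GAT, against 657, 680, 466 and 487 CPM in wild-type GAT, lowest among Azin2-/- libraries in replicate 1, and its part in the result was not tested.

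Slc3a2 had 164, 189, 178 and 169 normalised CPM in Azin2-/- GAT, against 161, 132, 142 and 144 in wild-type GAT. All Azin2-/- libraries were higher, by a small step, and the log2 fold change of 0.26 (adjusted p = 0.0756, SE 0.08) did not pass, except when wild-type replicate 1 was left out (0.31, adjusted p = 0.0439). Slc36a2 had 116, 199, 258 and 222 normalised CPM in Azin2-/- GAT, against 151, 148, 107 and 133 in wild-type GAT. Replicate 1 of the Azin2-/- group lay among the wild-type libraries and the other 3 above them, with a log2 fold change of 0.55 (adjusted p = 0.153, SE 0.22). Without that replicate the log2 fold change was 0.73 (adjusted p = 0.0143).

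Without wild-type replicate 3, the library with epididymis transcripts, 7 of 35 members passed, 4 higher and 3 lower, where 7.94% of all genes did (5.25% higher and 2.69% lower). Slc7a7, Slc43a2 and Slc36a4 were among them, joined by Slc7a5, which rose, and by Slc1a3, Slc43a1 and Slc7a10, which fell. Slc7a5 had 12.1, 16.2, 10.2 and 15.4 normalised CPM in Azin2-/- GAT, against 8.22, 5.71, 20.3 and 6.19 in wild-type GAT, replicate 3 being the highest of all 8. Its log2 fold change was 1.00 (adjusted p = 0.04802, SE 0.20) without that library and 0.39 (adjusted p = 0.546, SE 0.40) with it. Slc43a1 had 16.8, 12.9, 9.76 and 11.3 normalised CPM in Azin2-/- GAT, against 18.96, 46.8, 18.6 and 42.7 in wild-type GAT, and Slc1a3 had 101, 76.6, 97.5 and 70.7 in Azin2-/- GAT, against 123, 211, 101 and 200.5 in wild-type GAT. Both separated the genotypes also with replicate 3, at adjusted p = 0.0541 for Slc43a1 and 0.0654 for Slc1a3, for Slc1a3 by a narrow margin, and within wild-type GAT replicates 2 and 4 were well above replicates 1 and 3. The sum of 5 mesothelial markers was 27.8 to 124 CPM in Azin2-/- GAT and 56.7 to 456 CPM in wild-type GAT, where replicates 2 and 4 were also the highest. The adipocyte marker sum was highest in the same replicates, at 23742, 26684, 19513 and 27691 CPM in wild-type GAT. In low-fat SAT replicates 3, 5 and 6 Slc1a3 had 313 to 366 and Slc43a1 44.3 to 68.8 normalised CPM. There the mesothelial sum was 2.94 to 7.29 CPM. The part of either cell type in these levels was not tested. The white adipocyte carrier Slc7a10 had 307, 248, 299 and 254 normalised CPM in Azin2-/- GAT, against 334, 397, 265 and 426 in wild-type GAT, with a log2 fold change of -0.48 (adjusted p = 0.0494, SE 0.12) without replicate 3. These 7 calls, too, were lost without any one of Azin2-/- replicates 2, 3 and 4 and wild-type replicates 2 and 4, and that of Slc43a2 also without wild-type replicate 1.

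Slc7a4 and Slc7a11 show how far wild-type replicate 3 stood from its group. Slc7a4, a relative of the CAT carriers with no transport activity known, had 2.71, 2.49, 2.61 and 2.15 normalised CPM in Azin2-/- GAT, against 1.703, 2.58, 123 and 2.701 in wild-type GAT. Slc7a11 had 1.22, 1.34, 1.501 and 1.61 normalised CPM in Azin2-/- GAT, against 1.72, 1.11, 41.8 and 0.422 in wild-type GAT. Only replicate 3 was high for either gene, as low-fat SAT replicate 1 was in the diet groups (56.1 for Slc7a4 and 56.8 for Slc7a11).

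Among neighbouring genes in GAT, where 6.77% of all genes tested passed, all 3 called of 18 carriers of other families were higher in Azin2-/- GAT. They were the taurine carrier Slc6a6 (log2 fold change 1.63, adjusted p = 0.0408), the lysosomal cysteine carrier Mfsd12 (log2 fold change 1.62, adjusted p = 0.0408) and Slc15a3 (log2 fold change 1.99, adjusted p = 0.0408). All 3 called of 32 genes of amino acid sensing to mTORC1 were higher too: the folliculin partner Fnip2 (log2 fold change 1.21, adjusted p = 0.0408) and the lysosomal transcription factors Mitf (log2 fold change 0.85, adjusted p = 0.0455) and Tfeb (log2 fold change 0.66, adjusted p = 0.0461). Of 21 polyamine and arginine genes 3 were higher and 1 lower, the last being Azin2 (log2 fold change -0.74, adjusted p = 0.0408), and the higher ones included Atp13a2 (log2 fold change 0.92, adjusted p = 0.0408). Of 24 amino acid response genes, asparagine synthetase Asns fell (log2 fold change -0.65, adjusted p = 0.0411) and Aldh18a1, an enzyme of proline synthesis, rose (log2 fold change 0.51, adjusted p = 0.0411). Of 15 glutamine and glutamate enzymes the alanine aminotransferase Gpt2 fell (log2 fold change -0.76, adjusted p = 0.0422), and of 14 glutathione and NRF2 genes the heme oxygenase Hmox1 rose (log2 fold change 1.13, adjusted p = 0.0408). Without wild-type replicate 3, where 7.94% of all genes tested passed, the balance of the polyamine and arginine genes turned, with 1 higher, Atp13a2, and 2 lower, Azin2 and the polyamine carrier Slc18b1 (log2 fold change -0.37, adjusted p = 0.04802). Of the amino acid response genes 3 were then higher and 2 lower, and of the other carriers 5 were higher. Of the mTORC1 genes 2 were higher, Fnip2 among them but not Mitf (adjusted p = 0.06097) or Tfeb (adjusted p = 0.05996). Glutamine and glutamate enzymes stayed at 1 lower, and 2 glutathione and NRF2 genes were higher.

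**Figure D4:**
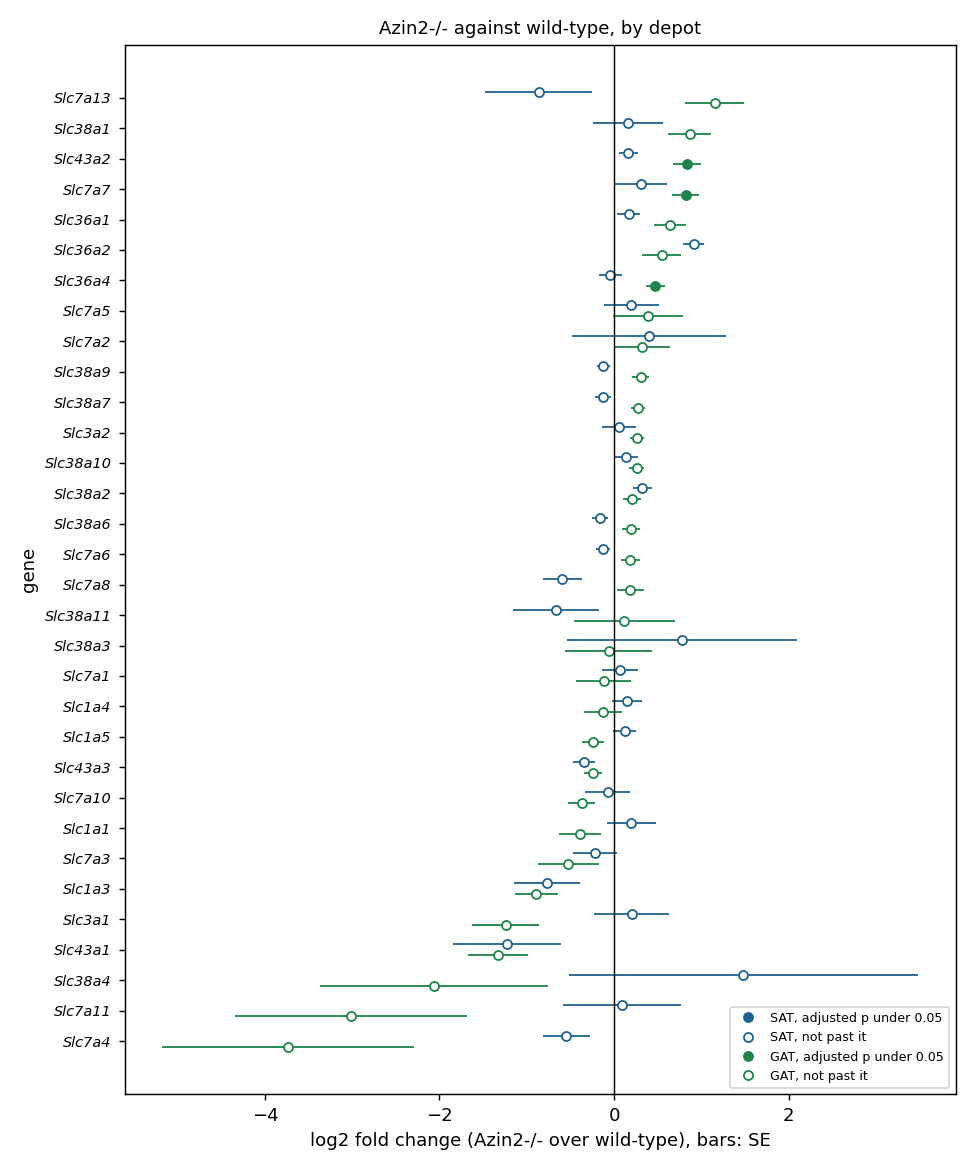
Log2 fold change, Azin2-/- over wild-type, in GAT and in SAT for the 32 members tested in both depots (points, with bars of 1 SE). Slc36a2 lies right of 0 in both depots, at 0.91 in SAT and 0.55 in GAT, and Slc7a7, Slc43a2 and Slc36a4 lie further right in GAT than in SAT.

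GAT and SAT were compared within each genotype to see which carriers differ between depots. The 2 comparisons and those of genotype share libraries and are given side by side. In wild-type mice 6 of 34 members tested (17.6%) passed, where 4.33% of all 17030 genes did (2.47% higher and 1.87% lower in GAT). Slc36a2 and the light chain Slc7a6 were lower in GAT, and Slc38a1, Slc38a5, Slc43a2 and Slc1a7 (EAAT5, a glutamate carrier of the retina) were higher. In Azin2-/- mice 7 of 33 members tested (21.2%) passed, where 15.2% of all 16800 genes did (9.13% higher and 6.04% lower), with Slc36a2 and Slc7a6 lower and Slc38a1, Slc43a2, Slc38a9, Slc7a4 and Slc7a11 higher in GAT. Slc7a6, Slc36a2, Slc38a1 and Slc43a2 were called in both genotypes, in the same direction. Marks in the library titles recur between depots and may stand for the same mouse, which the labels do not say. With the mark as a block, so that only libraries with a shared mark count (3 pairs in wild-type and 2 in Azin2-/- mice), no member passed in wild-type mice, where 0% of all genes did. The block left 2 members called in Azin2-/- mice, Slc38a1 and Slc43a2, where 6.54% of all genes did.

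Slc36a2 had 151, 148, 107 and 133 normalised CPM in wild-type GAT, against 224, 223, 222, 205 and 294 in wild-type SAT, so every GAT library was below every SAT library. The log2 fold change was -0.79 (adjusted p = 0.0127, SE 0.13). In Azin2-/- mice it had 116, 199, 258 and 222 in GAT, against 439, 455 and 434 in SAT, a log2 fold change of -1.16 (adjusted p = 0.0257, SE 0.24). The depots were thus separated in both genotypes. The brown and beige adipocyte markers summed to 5.58 to 14.4 CPM in wild-type GAT and 22.4 to 96.9 CPM in wild-type SAT. The highest of these was SAT replicate 3, rich in muscle transcripts, and the other wild-type SAT libraries reached 65.6 CPM at most. Slc7a6 had 29.04, 20.8, 24.6 and 22.9 normalised CPM in wild-type GAT, against 43.3, 43.1, 36.4, 44.5 and 43.1 in wild-type SAT (log2 fold change -0.79, adjusted p = 0.00496, SE 0.10), and in Azin2-/- mice 29.3, 29.7, 24.9 and 27.999 in GAT, against 38.4, 38.8 and 39.4 in SAT (log2 fold change -0.48, adjusted p = 0.0193, SE 0.08). In wild-type mice Slc36a2 and Slc7a6 were the members whose calls held whichever library was left out, though neither passed with the mark as a block (log2 fold change -0.87, adjusted p = 0.295 for Slc36a2, and -0.72, adjusted p = 0.208 for Slc7a6).

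Slc38a1 was the sodium-coupled carrier called between depots in both genotypes. It had 11.04, 14.4, 7.71 and 11.4 normalised CPM in wild-type GAT, against 4.02, 6.68, 2.26, 4.66 and 2.29 in wild-type SAT (log2 fold change 1.48, adjusted p = 0.0385, SE 0.33). In Azin2-/- mice it had 12.4, 25.3, 23.1 and 21.5 in GAT, against 6.54, 3.48 and 3.39 in SAT (log2 fold change 2.19, adjusted p = 0.0171, SE 0.34). The depots did not overlap in either genotype. Slc43a2 had 44.9, 49.1, 40.98 and 48.1 in wild-type GAT, against 33.02, 34.1, 34.1, 40.9 and 30.1 in wild-type SAT (log2 fold change 0.41, adjusted p = 0.0423, SE 0.09), and 54.7, 96.2, 94.99 and 84.3 in Azin2-/- GAT, against 42.4, 38.6 and 35.6 in Azin2-/- SAT (log2 fold change 1.08, adjusted p = 0.0205, SE 0.20). The depots were apart in both genotypes for Slc43a2 as well. In wild-type mice the margin was narrow, with 40.98 in GAT replicate 3 and 40.9 in SAT replicate 4. In wild-type mice these calls were close to the threshold: that of Slc38a1 held only without GAT replicate 3 or SAT replicate 2, that of Slc43a2 only without GAT replicate 3 or SAT replicate 4 and that of Slc1a7 only without GAT replicate 3 or SAT replicate 3, while leaving out any other library gave adjusted p = 0.0504 to 0.118. The call of Slc38a5 was lost without GAT replicate 4 or SAT replicate 1, 2, 4 or 5 (adjusted p = 0.0555 to 0.0746).

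Slc38a5 and Slc1a7 rest on few reads. Slc38a5 had 13, 31, 287 and 93 counts in wild-type GAT, against 6, 4, 3, 0 and 2 counts in wild-type SAT, and its log2 fold change was 5.06 (adjusted p = 0.0253, SE 1.00) with wild-type GAT replicate 3 and 3.93 without it. Slc1a7 had 16, 29, 14 and 39 counts in wild-type GAT, against 5, 4, 7, 2 and 0 counts in wild-type SAT, a log2 fold change of 2.70 (adjusted p = 0.0456, SE 0.64). Both were near the limit of detection in SAT, where a library with no read still allows up to 3. In Azin2-/- mice Slc7a11 had 1.22, 1.34, 1.501 and 1.61 normalised CPM in GAT, against 0.462, 0.387 and 0.222 in SAT (log2 fold change 1.97, adjusted p = 0.0167, SE 0.30), and Slc7a4 had 2.71, 2.49, 2.61 and 2.15 in GAT, against 1.15, 0.581 and 0.834 in SAT (log2 fold change 1.52, adjusted p = 0.0201, SE 0.27). Slc38a9 had 20.9, 26.1, 24.1 and 23.5 in Azin2-/- GAT, against 18.2, 17.4 and 17.1 in Azin2-/- SAT, a small but even step (log2 fold change 0.42, adjusted p = 0.0294, SE 0.09). All 7 calls in Azin2-/- mice were lost without any one of GAT replicates 2, 3 and 4 or SAT replicate 3 (adjusted p = 0.0505 to 0.0927). The macrophage sum was 863 to 1938 CPM in Azin2-/- GAT and 263 to 569 CPM in Azin2-/- SAT, and 466 to 680.0 CPM in wild-type GAT and 263 to 494 CPM in wild-type SAT. The mesothelial markers differed more between depots, with sums of 27.8 to 124 CPM in Azin2-/- GAT and 0.899 to 1.69 CPM in Azin2-/- SAT, and 56.7 to 456 CPM in wild-type GAT and 1.27 to 3.45 CPM in wild-type SAT. The part of either cell type in the depot differences was not tested.

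The heavy chain Slc3a2 did not pass in either genotype. Its mean was 145 ± 12.2 normalised CPM in wild-type GAT (SD, n = 4) and 167 ± 25.1 in wild-type SAT (SD, n = 5), with a log2 fold change of -0.20 (adjusted p = 0.346, SE 0.12). In Azin2-/- mice the mean was 175 ± 11.3 in GAT (SD, n = 4) and 174 ± 46.5 in SAT (SD, n = 3), where replicate 2, rich in muscle transcripts, had the lowest level, and the log2 fold change was 0.006 (adjusted p = 0.986). Its sign there turned without GAT replicate 2 (-0.026) or SAT replicate 2 (-0.20).

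Few genes of the neighbouring lists differed between depots in wild-type mice, where 4.33% of all genes passed. The serine synthesis enzymes Phgdh (log2 fold change 0.72, adjusted p = 0.00949) and Psat1 (log2 fold change 0.55, adjusted p = 0.00636) were higher and Atf4, the transcription factor of the amino acid response, was lower in GAT (log2 fold change -0.38, adjusted p = 0.0295), out of 24 genes of that list. Mfsd12 was the 1 carrier of 18 called (log2 fold change 0.86, adjusted p = 0.0335), and none of the mTORC1, glutamine, glutathione and polyamine genes passed. In Azin2-/- mice, where 15.2% of all genes passed, 2 amino acid response genes were higher and 4 lower in GAT, the lower ones including Asns (log2 fold change -0.83, adjusted p = 0.0298), Ddit4 (log2 fold change -0.74, adjusted p = 0.0192) and Vldlr (log2 fold change -0.86, adjusted p = 0.0171). Of 18 other carriers 3 were higher and 2 lower, with the mitochondrial carriers Slc25a22 (log2 fold change -0.69, adjusted p = 0.0127) and Slc25a44 (log2 fold change -0.77, adjusted p = 0.0162) lower. Of 21 polyamine and arginine genes 2 were higher and 1 lower, Sat1, the enzyme that acetylates spermidine and spermine (log2 fold change 0.84, adjusted p = 0.0231), and Atp13a2 (log2 fold change 0.97, adjusted p = 0.031000) being higher and the polyamine oxidase Paox (log2 fold change -0.54, adjusted p = 0.0394) lower.

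**Figure D5:**
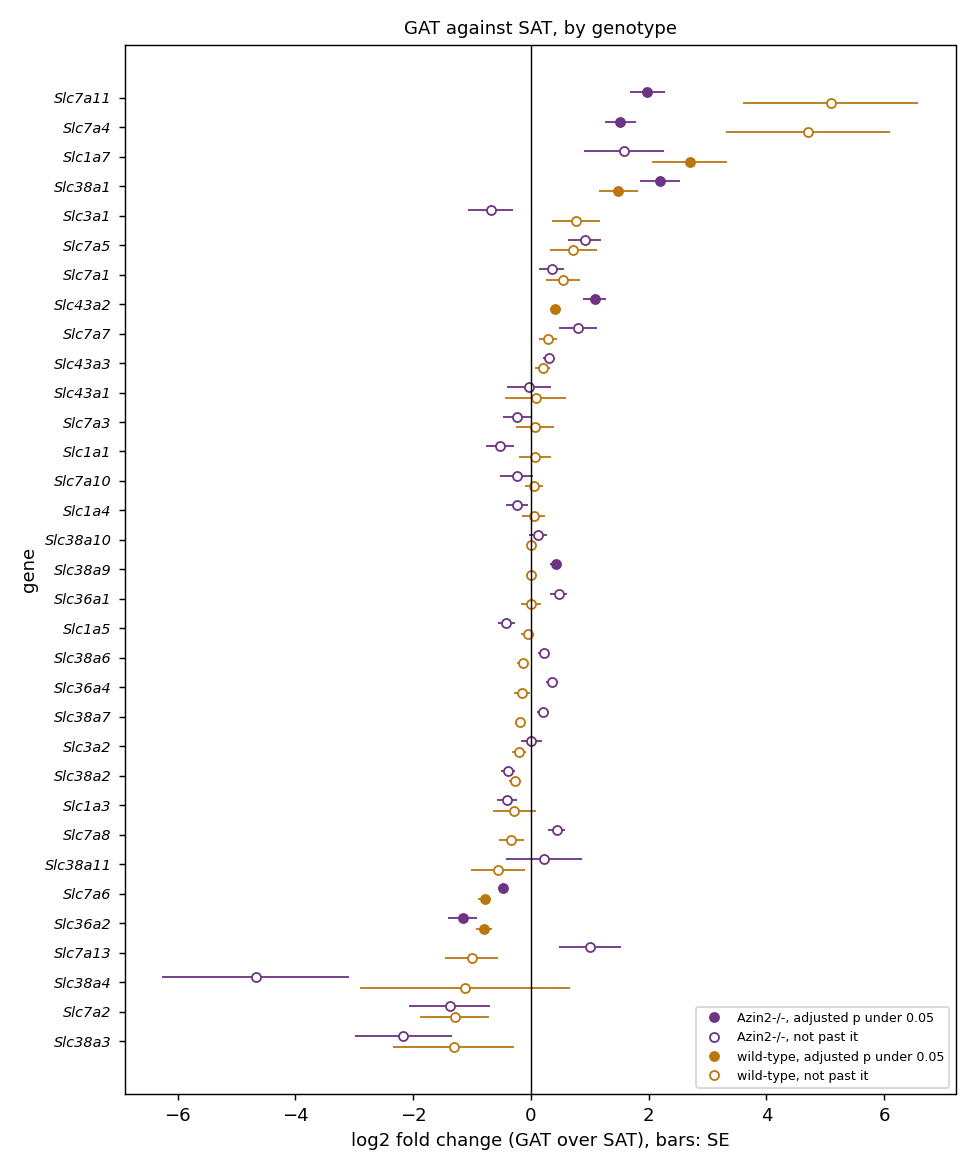
Log2 fold change, GAT over SAT, in Azin2-/- and in wild-type mice for the 33 members tested in both genotypes (points, with bars of 1 SE). Slc36a2 and Slc7a6 lie left of 0 and Slc38a1 and Slc43a2 right of it in both genotypes.

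Whether the genotype difference itself differed between depots was tested as an interaction over the 16 libraries of both depots. None of 35 members passed in edgeR, and 0 of 18033 genes did (0%). At an unadjusted p under 0.05 there were 9 members, given without the share of all genes at that threshold. DESeq2 called 0 members and limma-voom 10, where they called 1.18% and 15.1% of all genes. The interaction of Slc36a2 was -0.36 (adjusted p = 0.639, SE 0.28) on the log2 scale, that of Slc3a2 0.21 (adjusted p = 0.732, SE 0.22) and that of Slc7a7 0.52 (adjusted p = 0.586, SE 0.35). The smallest p-values were those of Slc38a9 (interaction 0.43, adjusted p = 0.325, SE 0.12) and Slc38a7 (interaction 0.41, adjusted p = 0.325, SE 0.12), named after their values were seen. So the calls made in GAT and not in SAT were not shown to differ between the depots. Over the 6 comparisons with all libraries, 13 members passed in at least 1 and 29 in none.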

How the data were processed

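Total RNA of whole fat pads was made into strand-specific paired-end libraries with the TruSeq stranded total RNA kit, per the labels' protocols. The authors deposited raw counts per Ensembl gene, and cutadapt, STAR, HTSeq 0.6.1p1 and GRCm38 (mm10) are named in the submitters' processing notes. No source used here gives the strand setting or the annotation release, so overlapping and antisense genes may share reads. Identifiers were named from GENCODE M21 (GRCm38), and 259 of 49585, with 0.0103% of counts, were not in it. No 2 libraries were identical. Members and lists were chosen with earlier results of these data known.

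From the counts, TMM-normalised CPM over all 24 libraries and FPKM (that CPM per kilobase of the union of exons) were computed for description. Each comparison was tested in its own libraries with edgeR 4.0.16 in R 4.3.3 (filterByExpr with a minimum count of 10 and a minimum total of 15, TMM, robust quasi-likelihood F test, Benjamini-Hochberg over all genes tested, adjusted p below 0.05). The SE of a log2 fold change is its size over the root of F. DESeq2 1.42.0, limma 3.58.1 (voom with quality weights), DESeq2 size factors, no filter, 1 fit of all 24 libraries, a replicate block and leaving out each library were the alternatives, and leaving out both libraries rich in muscle or the epididymis library of wild-type GAT was added after seeing the data. The fits were tested on simulated data. A library with no read allows up to 3 counts (95% confidence), and such limits cover counting error only. The labels do not say that each library is a separate animal, so p-values measure the spread between these libraries. Slc36a2 and Slc3a2 were described in every comparison whatever their p, the called members with the value of every library for up to 12 of smallest p, and at most 3 called genes from each other list.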

Additional observations from a re-analysis of the deposited data

Results flagged for a closer look

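A sample far from the rest of its group was looked for in the 100 groups of 4 or 5 libraries of 20 members, where chance marks about 1 in 20, and 14 were found. 6 were low-fat SAT replicate 1, the library with epididymis transcripts: 40.2 normalised CPM for Slc1a3, below the rest, and 412 for Slc3a2, 56.1 for Slc7a4, 982 for Slc7a5, 56.8 for Slc7a11 and 1561 for Slc38a5, above the rest. Wild-type GAT replicate 3, the other such library, stood above its group with 123 normalised CPM for Slc7a4 and 41.8 for Slc7a11. High-fat SAT replicate 4 was the highest of its group with 1.76 for Slc7a4 and 14.99 for Slc7a7, and high-fat SAT replicate 6 the lowest with 8.03 for Slc38a1. Wild-type SAT replicate 3, rich in muscle transcripts, was the lowest of its group with 36.4 for Slc7a6, and wild-type SAT replicate 5 the highest with 294 for Slc36a2. Azin2-/- GAT replicate 1, which also had the lowest macrophage marker sum of its group, was the lowest with 10.7 for Slc7a7.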

How the results depend on the processing

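Counts of called members moved with the tool as follows. For diet in SAT, 5 with edgeR became 10 with DESeq2, 14 with limma-voom, 16 in 1 fit of all 24 libraries, 15 with the replicate block and 4 to 15 when 1 library was left out. For genotype in SAT, 0 became 1 with DESeq2 and 1 with limma-voom. For genotype in GAT, 3 became 12 with DESeq2, 23 with limma-voom, 0 without the low-count filter, 7 with the replicate block and 0 to 11 when 1 library was left out, or 0 to 19 when wild-type replicate 3 was out as well. For depot in wild-type mice, 6 became 2 without the filter, 0 with the replicate block and 2 to 6 when 1 library was left out. For depot in Azin2-/- mice, 7 became 15 with DESeq2, 22 with limma-voom, 2 with the replicate block and 0 to 11 when 1 library was left out. The interaction, 0 with edgeR, had 10 calls with limma-voom and 0 or 1 when 1 library was left out. The cause of these changes was not tested. Over all genes tested the calls moved likewise, in GAT to 19.6% with DESeq2, 38.5% with limma-voom and 0% without the filter, against 6.77%. For diet they were 33.4% with DESeq2, 46.9% with limma-voom, 31.9% in 1 fit of all 24 libraries and 34.4% with the block, against 21.2%. For depot in Azin2-/- mice they were 26.6% with DESeq2, 39.5% with limma-voom and 6.54% with the block, against 15.2%. The interaction had 15.1% with limma-voom, against 0% with edgeR. Slc3a2 reversed for diet with limma-voom (0.36), the block (0.40) and without low-fat replicate 1 (0.37; -0.48 to 0.37 over the single libraries left out), for genotype in SAT without Azin2-/- replicate 1 (-0.076), Azin2-/- replicate 3 (-0.049) or wild-type replicate 3 (-0.008), over a range of -0.076 to 0.27, and for depot in Azin2-/- mice with limma-voom (-0.12) and without GAT replicate 2 (-0.026) or SAT replicate 2 (-0.20), over a range of -0.20 to 0.14. Of the other values of single genes under an alternative, 500 kept direction and side of the threshold, 143 fell short of it, 15 newly passed and 4 FPKM values moved, all with the longest transcript as length. Shared numbers and marks were not shown to pair the samples: correlations of their deviations were -0.0006 to 0.26 for diet, -0.19 to 0.04 for genotype in GAT, 0.47 to 0.81 over the 2 pairs in SAT and -0.06 to 0.24 between depots, and whether a mark shared between depots is 1 mouse is not stated. With low-fat replicate 1 and high-fat replicate 4 each alone in a block, the diet block removes both. Replicates 3, 5 and 6 of each diet are left, with 2 residual degrees of freedom. Members under about 1 normalised CPM rest on few reads, and their levels are limited by depth.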

Other observations

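Some carriers that passed no test were uneven between SAT libraries, in part along with skeletal muscle transcripts. Slc38a4 (SNAT4, a carrier of neutral and cationic amino acids) had 2.87, 85.2 and 0.695 normalised CPM in Azin2-/- SAT, and 0.333, 14.2, 36.8, 0.424 and 0.452 in wild-type SAT, the highest libraries of each group being those with most muscle transcripts, Azin2-/- replicate 2 and wild-type replicate 3. Slc7a2 (CAT2) had 5.72, 35.9 and 5.002 normalised CPM in Azin2-/- SAT, and 6.30, 10.8, 29.8, 6.78 and 4.43 in wild-type SAT, with the same libraries highest. Slc38a3 (SNAT3, a glutamine carrier) had 7.55, 32.9 and 3.36 normalised CPM in Azin2-/- SAT, and 0.785, 21.2, 17.3, 1.44 and 1.295 in wild-type SAT, where replicate 2, with a muscle marker sum of 89.1 CPM, was above replicate 3. In the diet groups the order was mixed. Slc38a4 had 4.34, 1.901, 14.6 and 13.98 normalised CPM in high-fat SAT, and 9.705, 1.03, 26.8 and 1.86 in low-fat SAT, and Slc38a3 had 6.92, 3.91, 20.2 and 8.698 in high-fat SAT, and 4.12, 3.303, 30.07 and 4.47 in low-fat SAT. Low-fat replicate 5, with the most muscle transcripts of its group, was the highest there, while in high-fat SAT replicate 5, with a muscle marker sum of 35.7 CPM, was above replicate 6, with 5057 CPM. The part of muscle in these levels was not tested.

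Slc7a9, the light chain of rBAT, was at or near 0 in most libraries and had 138 counts in Azin2-/- GAT replicate 1, where the epididymis markers summed to at most 0.105 CPM, against 0, 1 and 1 counts in the other Azin2-/- GAT libraries. Slc7a15 had 33 counts in the same library and at most 3 in the other Azin2-/- GAT libraries.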
